A study of Homo sapiens with 4 samples.

Results

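Splicing factors and heterogeneous nuclear ribonucleoproteins (hnRNPs) were followed across 4 RNA-seq libraries of SUM159-R cells, a paclitaxel-resistant derivative of the human triple-negative breast cancer line SUM159. Members were the genes whose symbol begins with SRSF and a digit, HNRNP, SF3A or SF3B, SNRP, PRPF and a digit, or U2AF1 or U2AF2, leaving out 1 readthrough name. The rule gave 76 of the 20289 genes in the table: 12 SR proteins, 26 hnRNP genes, 9 subunits of SF3A and SF3B, 12 SNRP genes, 13 PRPF genes and 4 U2AF genes. Of these, 70 had at least 20 counts in a library and are called measured. The other 6 were HNRNPCL1 to HNRNPCL4, which were at 0 in all 4 libraries, SRSF12, with 0, 1, 0 and 0 counts, and the pseudogene HNRNPA1P48, with 5, 14, 4 and 13 counts. Values in a row are given here and throughout in the order DMSO, enzastaurin, paclitaxel, combination.

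The cells carry the genotype label WT, and resistant lines were kept in 150 nM paclitaxel, so the cells of all 4 groups come from culture with that drug. The groups received the solvent DMSO, 2.5 µM enzastaurin (an inhibitor of protein kinase C), 500 nM paclitaxel (which stabilises microtubules) or both compounds, each for 24 h. The study's title names protein kinase C inhibition and chemo-resistance. Each group is 1 library of 1 cell line, so no test was made and every interval covers counting error only. Library totals were 22576953, 21959564, 24699948 and 18236527 counts. ESR1 had 0 to 3 counts and PGR none, ERBB2 had 1179 to 2058, and VIM, a mesenchymal marker, had 66398 to 105989. Of the markers of other cells, CD3E was at 0, CDH5, EPCAM and KRT5 did not exceed 9 counts, PTPRC had 2 to 16, and PECAM1 had 19, 21, 54 and 31.

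Pre-mRNA splicing removes introns through a complex, the spliceosome, that is built anew on each intron. SNRP proteins form the rings and the specific parts of the small nuclear ribonucleoproteins (snRNPs), which pair with the splice sites. U2AF reads the end of the intron, SF3A and SF3B anchor the U2 snRNP at the branch point, and PRPF proteins take part in assembling and activating the complex. SR proteins bind exons and mostly favour their inclusion, while hnRNPs bind nascent RNA widely and often oppose it. Many genes for SR proteins and hnRNPs control their own level by splicing their transcripts into forms that are degraded by nonsense-mediated decay (NMD).

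The 70 measured members were among the abundant transcripts of these cells. In FPKM, which scales counts by transcript length and depth, their median level in DMSO was 77.1, against 11.83 for the 11843 measured genes, and 30 of the 70 reached 100 FPKM. Together they took 1.83%, 1.89%, 1.85% and 1.90% of all counts, a share that moved little between libraries. By class, the median level in DMSO was 218 FPKM for hnRNP genes, 96.8 for SR proteins, 65.1 for SNRP genes, 62.6 for SF3A and SF3B subunits, 59.1 for U2AF genes and 24.8 for PRPF genes. The most abundant member was HNRNPA1, which binds intronic and exonic silencers, with 1342, 1355, 1347 and 1362 FPKM. The top of the other classes in DMSO was SRSF2 at 232 FPKM, SNRPB, a core ring protein, at 211, SF3B2 at 120.2, U2AF2, the large U2AF subunit, at 119 and PRPF19, a ubiquitin ligase of the active spliceosome, at 80.8. SRSF2 had 232, 239, 226 and 209 FPKM and was lowest in the combination.

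**Figure D1:**
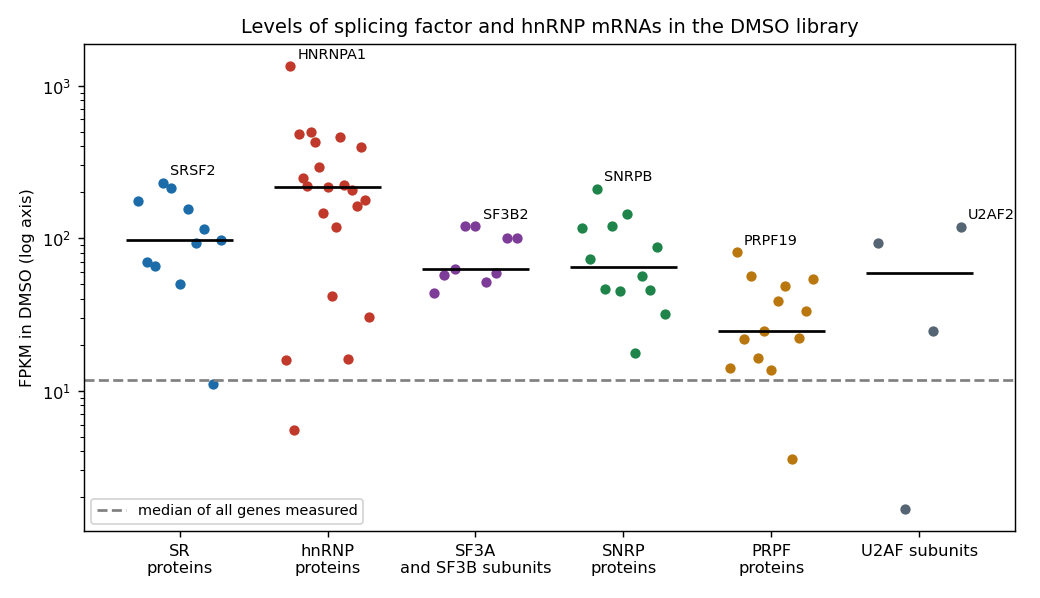
Levels of the measured members in the DMSO library, by class. The vertical axis is FPKM on a log scale, each point is 1 gene, solid bars are class medians and the dashed line is the median of all measured genes, 11.83; the hnRNP genes hold the highest values, up to 1342 FPKM for HNRNPA1.

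With either drug alone, the members stayed close to their DMSO level. On the TMM-scaled counts, the median log2 ratio of the 70 members was 0.04 for enzastaurin over DMSO (41 above 0, 29 below) and 0.01 for paclitaxel over DMSO (39 above 0, 31 below). The ratios ran from -0.29 to 0.24 with enzastaurin and from -0.18 to 0.18 with paclitaxel, and 47 and 49 members lay within 0.1 of 0. A gene was called where its ratio reached 2-fold, its 95% counting interval excluded equality and 20 or more counts were seen in the higher library. A 1.5-fold rule with the same conditions was used as well, since most members have narrow intervals. Neither rule called a member with enzastaurin (0.887% of the 11843 measured genes passed 2-fold and 2.31% passed 1.5-fold) or with paclitaxel (1.24% and 2.71%). The members are abundant, and among the 4719 genes averaging 1000 counts or more only 0.0424% and 0.233% passed 1.5-fold, so 0 of 70 is near that background. The lowest with enzastaurin was HNRNPA1L2, a copy of HNRNPA1, at -0.29 (95% interval -0.62 to 0.05). The highest was U2AF1L5, an entry that matches U2AF1, at 0.24 (0.05 to 0.42). Summed with the genes they share reads with, these 2 were at 0.04 and 0.00, sums in which HNRNPA1 and U2AF1 hold most of the counts. With paclitaxel the lowest was HNRNPDL at -0.18 (-0.23 to -0.14) and the highest HNRNPH1 at 0.18 (0.14 to 0.22).

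The combination library differed from the other 3 more widely. No member passed 2-fold over DMSO, paclitaxel or enzastaurin, where 6.54%, 4.75% and 6.36% of measured genes did. Of genes averaging 1000 counts or more, 2.9%, 1.8% and 2.8% passed 2-fold, so 0 of the 62 members at that level is near background. The 1.5-fold rule called 3 members over DMSO (HNRNPDL, SF3B3 and SRSF5; 4.29% of the 70, against 16.7% of measured genes), 1 over paclitaxel (HNRNPDL; 1.43% against 13%) and 2 over enzastaurin (HNRNPDL and SRSF5; 2.86% against 16.8%). All 3 were lower in the combination, as were most called genes: 13.2%, 11.1% and 13.3% of measured genes were lower at 1.5-fold, and 3.49%, 1.9% and 3.5% were higher. Among genes averaging 1000 counts or more, 9.87%, 6.76% and 9.51% passed 1.5-fold in the same 3 contrasts, and 3, 1 and 2 of the 62 members at that level did. In these bulk libraries, fewer cells of a kind and less RNA per cell cannot be told apart, and the values are shares of each library, not amounts per cell. The 3 contrasts share the combination library, and contrasts over DMSO share that one, so their values are given side by side and not as separate support.

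Below these calls, more ratios were positive than negative. Over paclitaxel, 52 of 70 members were above 0 in the combination and 18 below, with a median log2 ratio of 0.13, against -0.02 for all measured genes and 0.05 for the 4719 abundant genes. The share above 0 was 74.3% of members, 47.3% of all measured genes and 58.2% of the abundant ones. Over DMSO the median was 0.16 with 53 above 0, which is 75.7% of members, against 56.7% of the abundant genes. Over enzastaurin it was 0.13 with 44 above 0, or 62.9% against 57.2%, close to that background. Transcript length and GC content moved with these ratios: with their trend over all genes removed, the median was 0.06 over paclitaxel (44 above 0, 26 below) and 0.08 over DMSO (42 above 0, 28 below). The medians of all measured genes were then -0.04 over paclitaxel and -0.03 over DMSO. Over paclitaxel the median of the SR class then went from 0.11 to 0.05 and that of the SNRP genes from 0.24 to 0.10. That of the SF3A and SF3B subunits went from 0.12 to 0.02 (5 above 0, 4 below) and that of the PRPF genes from 0.04 to -0.01. The hnRNP median moved little, from 0.09 to 0.08 (15 above 0 and 6 below in each case), and the U2AF median went from 0.33 to 0.28.

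**Figure D2:**
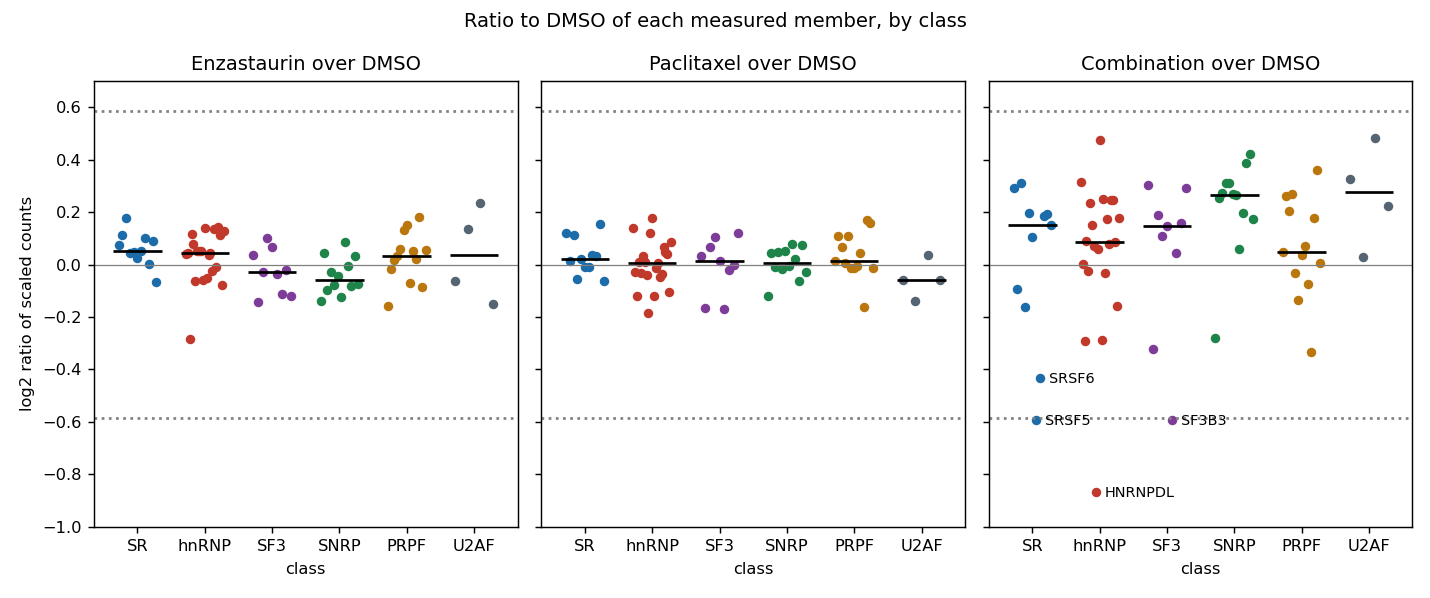
Log2 ratios over DMSO of the measured members in the 3 treated libraries. The vertical axis is the log2 ratio of TMM-scaled counts, the horizontal axis the class, each point is 1 gene, solid bars are class medians and dotted lines mark 1.5-fold; no point passes a dotted line with either drug alone, and in the combination HNRNPDL at -0.87 and SF3B3 and SRSF5 at -0.59 do.

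The gene that differed most was HNRNPDL (ENSG00000152795, hg38 chr4:82422564-82430408, minus strand), which encodes hnRNP D-like, an RNA-binding protein that acts in splicing. It had 439, 455, 386 and 241 CPM (counts scaled by the TMM-adjusted library size), with 95% Poisson intervals of 431 to 448, 446 to 464, 379 to 394 and 234 to 248. The combination was lowest, clear of the other 3 in counting error, and paclitaxel was below DMSO and enzastaurin. The log2 ratio of the combination was -0.87 (-0.92 to -0.81) over DMSO, -0.92 (-0.97 to -0.87) over enzastaurin and -0.68 (-0.73 to -0.63) over paclitaxel.

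Of the SR proteins, SRSF5 and SRSF6, both of which bind exonic enhancers, were the lowest in the combination. SRSF5 (ENSG00000100650, chr14:69726900-69772005, plus strand) had 196, 203, 195 and 130.4 CPM. Its first 3 libraries overlapped in their counting intervals, and the combination lay apart at 125 to 136. The log2 ratio was -0.59 (-0.66 to -0.52) over DMSO, -0.64 (-0.71 to -0.57) over enzastaurin and -0.58 (-0.65 to -0.51) over paclitaxel, the last being 1.495-fold and so just short of the 1.5-fold rule. SRSF6 (ENSG00000124193, chr20:43457928-43464247, plus strand) had 246, 264, 252 and 182 CPM, again with the combination lowest. It was below the rule in each contrast, at -0.43 (-0.49 to -0.37), -0.53 (-0.60 to -0.47) and -0.47 (-0.53 to -0.41) in the same order, and was singled out after its values were seen.

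SF3B3 (ENSG00000189091, chr16:70523788-70577670, plus strand), a large subunit of SF3B that packs against the branch-point binding subunit SF3B1, had 422, 411, 375 and 279.8 CPM. The combination was lowest and paclitaxel next. Its log2 ratio in the combination was -0.59 (-0.64 to -0.54) over DMSO, -0.56 (-0.61 to -0.51) over enzastaurin and -0.42 (-0.47 to -0.37) over paclitaxel. SF3A2 was also lowest in the combination, with 93.3, 84.4, 83.2 and 74.6 CPM, at -0.32 (-0.42 to -0.22) over DMSO and -0.16 (-0.26 to -0.06) over paclitaxel. Of the others, over paclitaxel SF3B1 was at 0.00 (-0.04 to 0.05), SF3B2 at 0.14 (0.09 to 0.18) and SF3A1, the highest of the class, at 0.27 (0.21 to 0.33). Of the 9 subunits, 7 were above 0 over paclitaxel, and SF3B3 and SF3A2 were below. Levels within the complex ran from 43.8 to 120.2 FPKM in DMSO.

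The sequences upstream of HNRNPDL, SRSF5 and SRSF6, the lowest members with an entry, and of SNRPF, the highest over paclitaxel, are shown because these 4 genes mark the ends of the range. Each is the 250 bases before the start given by RefSeq on GRCh38.p14, read 5′ to 3′ on the gene's strand, at chr4:82430463-82430712 (minus), chr14:69766892-69767141 (plus), chr20:43457646-43457895 (plus) and chr12:95858702-95858951 (plus). Capitals mark searched motifs on either strand: CCAAT (the CCAAT box), GGGCGG (a GC box), TGACG (part of the site read by CREB-family factors), CCGGAAG (a core read by ETS factors) and CACGTG (an E-box).
HNRNPDL: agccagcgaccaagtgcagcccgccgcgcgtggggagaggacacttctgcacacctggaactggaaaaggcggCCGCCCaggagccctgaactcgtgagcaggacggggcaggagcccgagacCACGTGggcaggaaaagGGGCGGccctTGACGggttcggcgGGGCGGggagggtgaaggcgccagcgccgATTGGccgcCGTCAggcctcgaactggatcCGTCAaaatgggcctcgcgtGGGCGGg
SRSF5: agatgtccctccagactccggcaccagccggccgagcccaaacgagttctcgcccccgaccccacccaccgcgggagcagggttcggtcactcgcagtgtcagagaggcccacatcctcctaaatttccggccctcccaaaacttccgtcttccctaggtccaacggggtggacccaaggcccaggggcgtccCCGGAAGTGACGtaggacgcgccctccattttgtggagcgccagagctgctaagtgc
SRSF6: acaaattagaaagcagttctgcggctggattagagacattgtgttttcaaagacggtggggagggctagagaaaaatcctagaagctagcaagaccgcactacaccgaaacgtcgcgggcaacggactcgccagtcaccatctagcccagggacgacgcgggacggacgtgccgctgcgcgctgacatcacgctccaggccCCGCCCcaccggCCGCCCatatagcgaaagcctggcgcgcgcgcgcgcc
SNRPF: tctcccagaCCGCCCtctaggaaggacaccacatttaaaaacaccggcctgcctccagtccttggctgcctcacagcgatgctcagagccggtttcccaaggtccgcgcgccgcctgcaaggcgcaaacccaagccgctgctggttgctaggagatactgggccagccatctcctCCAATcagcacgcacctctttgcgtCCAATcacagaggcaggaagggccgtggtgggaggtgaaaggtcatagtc

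The HNRNPDL window holds GGGCGG 4 times, TGACG 3 times, CCAAT 1 time and the E-box CACGTG 1 time, and 70% of its bases are G or C. The SRSF5 window holds CCGGAAG and TGACG in 1 joined run, the SRSF6 window GGGCGG 2 times, and the SNRPF window CCAAT 2 times and GGGCGG 1 time. The 3 windows of lower genes thus have no searched motif in common. The SRSF5 window lies 40242 bases inside the gene as GENCODE 29 bounds it, at a downstream start.

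Of the 70 measured members, 61 had a RefSeq promoter entry, and these were set beside the 9533 entries of measured genes, members included. For members the entry nearest the annotated gene start was used. For measured genes and for the set of all entries it was the first listed per symbol. The promoters were thus chosen by unlike rules, so differences between these shares are not read as a trait of the members. CCGGAAG was in 34.4% of member windows and 16.9% of measured-gene windows. TGACG was in 42.6% and 30.8%, CCAAT in 44.3% and 35.6%, and CACGTG in 11.5% and 9.13%. GGGCGG was in 59.0% of members and 68.1% of measured genes, and TATAA, the TATA box, in 9.84% and 10.2%. The longer TGACGTCA was in 0 of the 61 and in 3.04% of measured-gene windows, and the NRF1 core motif in 0 and 2.05%. Over all 27305 entries the shares were 8.82% for CCGGAAG, 21.7% for TGACG, 33.0% for CCAAT, 6.49% for CACGTG, 42.3% for GGGCGG, 19.6% for TATAA, 1.77% for TGACGTCA and 1.13% for the NRF1 core. Each TGACGTCA also counts as TGACG. These are matches of letters and were not tested for binding.

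**Figure D3:**
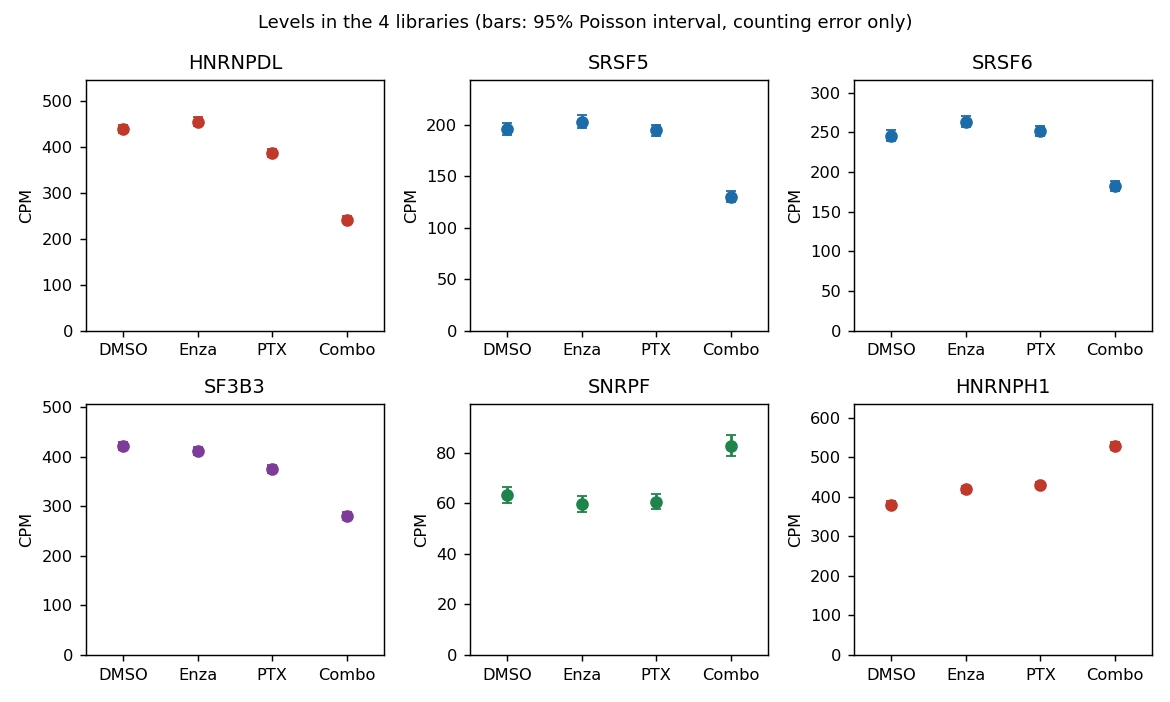
Levels of single members in the 4 libraries. The vertical axis is CPM, each point is 1 library and the bars are 95% Poisson intervals. HNRNPDL, SRSF5, SRSF6 and SF3B3 are lowest in the combination, at 241, 130.4, 182 and 279.8 CPM, and SNRPF and HNRNPH1 are highest there, at 82.6 and 529 CPM.

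Most of the remaining SR proteins did not follow SRSF5 and SRSF6. Over paclitaxel, 7 of the 11 measured SR genes were above 0 in the combination, with a class median of 0.11. The highest was SRSF9 at 0.21 (0.13 to 0.29), which fell to 0.06 in the lowest of the alternative settings listed below. SRSF1, a widely studied exon-definition factor, was at 0.17 (0.13 to 0.21) with 452, 476, 492 and 553 CPM. SRSF1 was highest in the combination, but 45.7% of its 100-base stretches also occur in an unnamed gene, ENSG00000266086. Summed with that gene, its ratio was 0.16 (0.12 to 0.20). SRSF2, the most abundant of the class, was at -0.11 (-0.15 to -0.06), and SRSF10 was the other gene below 0.

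Among the hnRNP genes, HNRNPDL was lowest and HNRNPH1 highest in the combination over paclitaxel. Of 21 measured hnRNP genes, 15 were above 0 in that contrast and 6 below, with a median of 0.09, and 8 lay within 0.1 of 0. HNRNPA1, the most abundant member, was at 0.03 (0.01 to 0.05) over paclitaxel and at 0.00 (-0.02 to 0.02) over DMSO. HNRNPH1 (ENSG00000169045, chr5:179614178-179634784, minus strand), which binds runs of G, had 381, 419, 430.0 and 529 CPM. All 3 treated libraries were above DMSO, the combination most, at a log2 ratio of 0.48 (0.43 to 0.52) over DMSO and 0.30 (0.26 to 0.34) over paclitaxel. On FPKM with a pseudocount of 1 it was at 0.60 over DMSO, past the 1.5-fold size. Its paralog HNRNPH2 was at -0.29 (-0.39 to -0.19) over DMSO, with 12.5% of its 100-base stretches shared with the readthrough RPL36A-HNRNPH2.

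The SNRP genes, which encode the snRNP proteins, had a median of 0.24 over paclitaxel and 0.27 over DMSO. Of 12 genes, 10 were above 0 over paclitaxel and 11 over DMSO, and none was called. SNRPF (ENSG00000139343, chr12:95858928-95903828, plus strand), a protein of the core ring, had 63.2, 59.6, 60.6 and 82.6 CPM. The first 3 libraries overlapped in counting error and the combination was above them, at 0.45 (0.34 to 0.55) over paclitaxel and 0.39 (0.28 to 0.49) over DMSO. The ring proteins SNRPG, SNRPB and SNRPD2 were at 0.35, 0.28 (0.23 to 0.34) and 0.27, and SNRPC, a protein of the U1 snRNP, at 0.33 (0.24 to 0.41). Not all followed: SNRPD3, of the same ring, was at -0.02 (-0.13 to 0.09), and SNRPA, also of the U1 snRNP, at -0.16 (-0.24 to -0.08) with 117, 101.5, 106 and 89.5 FPKM. SNRP transcripts are short, with a median of 1272 bases against 3481 for measured genes. After removal of the trend with length and GC content, the class median was 0.10 over paclitaxel (8 above 0, 4 below) and 0.11 over DMSO, and SNRPF was at 0.18 and 0.06. SNRPB was at 0.15 over paclitaxel in the lowest of the alternative settings.

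The 4 U2AF entries were above 0 over paclitaxel, but U2AF1 and U2AF1L5 share most of their sequence and are not separate readings. U2AF2, which reads the pyrimidine tract, had 221, 199, 212 and 258 CPM, lowest with enzastaurin and highest in the combination. Its log2 ratio was -0.15 (-0.21 to -0.09) for enzastaurin over DMSO and 0.28 (0.23 to 0.34) for the combination over paclitaxel. U2AF1, the small subunit, which reads the AG at the intron's end, lies at chr21:43092956-43107587. A matching entry, U2AF1L5, is annotated at chr21:6484623-6499261. Both entries are on the minus strand, and whether they are separate genes was not tested. In GENCODE 29 their longest reading frames, 723 bases, had 0 differences between matching transcripts, and 89.4% of their 100-base stretches were shared. Reads that lie within shared stretches cannot be assigned between them by sequence. U2AF1 had 2012, 1886, 2127 and 2012 counts and U2AF1L5 469, 540, 529 and 523. Summed they had 2481, 2426, 2656 and 2535 counts, at 0.40 (0.32 to 0.48) for the combination over paclitaxel and 0.00 (-0.08 to 0.08) for enzastaurin over DMSO. U2AF1L4 had 22 to 29 counts and an interval of -0.71 to 1.03 over paclitaxel.

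PRPF genes had a median close to 0 with members on both sides. Over paclitaxel the median was 0.04, 9 of 13 were above 0, 5 lay within 0.1 of 0, and none was called. PRPF6, which bridges parts of the tri-snRNP, had 100.9, 95.1, 113 and 129.5 CPM, highest in the combination, at 0.20 (0.12 to 0.28) over paclitaxel and 0.36 (0.28 to 0.44) over DMSO. PRPF31, a protein of the tri-snRNP, was highest at 0.26 (0.18 to 0.35), with 56.1, 60.1, 58.8 and 69.4 FPKM. PRPF40B, a relative of a yeast U1 snRNP protein, was lowest at -0.17 (-0.47 to 0.12), an interval that includes 0, with 254, 252, 250 and 161 counts. It overlaps FMNL3 on the opposite strand, and the use of strand in counting was not given in the sources used here. PRPF8, the core of the catalytic spliceosome, was at 0.02 (-0.03 to 0.06).

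Reads that fit more than 1 gene limit 13 members in all, those with at least 5% of their 100-base stretches in another gene of the table. Besides the genes above, HNRNPUL2 shares 42.5% with the readthrough that the rule left out, PRPF18 31.1%, HNRNPA1L2 26.4%, SNRPN 17.7%, HNRNPA1 13.5%, U2AF1L4 12.9%, SNRPB 11.5%, SNRPD3 6.81% and HNRNPL 6.48%. Summed with the genes they share reads with, the combination over paclitaxel was at 0.10 for HNRNPUL2, 0.05 for PRPF18, 0.19 for SNRPN, 0.28 for SNRPB, -0.03 for SNRPD3 and 0.22 for HNRNPL. Alone they were at 0.09, 0.04, 0.20, 0.28, -0.02 and 0.22, so the sums hardly differ. For SNRPB, HNRNPL and SNRPD3 the added gene had only 8, 2 and 17 counts in DMSO, too few to move the ratio. HNRNPA1L2 was at -0.17 (-0.53 to 0.19) alone and its sum at 0.03 (0.01 to 0.05). It had 167 of the 43169 summed counts in DMSO, so that sum is in effect the ratio of HNRNPA1. U2AF1L4 changed sign, from 0.17 to -0.10 (-0.84 to 0.61).

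The enzastaurin ratio was set side by side without and with paclitaxel, which uses all 4 libraries with none shared. For HNRNPDL it was 0.05 (0.01 to 0.09) over DMSO and -0.68 over paclitaxel, a difference of -0.73 (-0.80 to -0.67). For SRSF5 the difference was -0.63 (-0.72 to -0.54), for SRSF6 -0.57 (-0.65 to -0.49) and for SF3B3 -0.39 (-0.45 to -0.32). These 4 lay between -0.04 and 0.10 with enzastaurin over DMSO and between -0.68 and -0.42 with the combination over paclitaxel. At the other end, SNRPF had a difference of 0.53 (0.38 to 0.68), U2AF2 of 0.43 (0.35 to 0.51), SNRPC of 0.40 (0.28 to 0.53), SNRPD2 of 0.40 (0.26 to 0.54) and the summed U2AF1 and U2AF1L5 of 0.40 (0.28 to 0.51). The median difference was 0.09 for the 70 members and -0.01 for the 11150 genes with at least 20 counts in each library. A difference of 1.5-fold or more was found for 2 members (2.86%), HNRNPDL and SRSF5, and for 14.9% of those genes. Both shares used the size alone, with no condition on the interval. Many of those genes have fewer counts than most members and so more counting error, so the shares cannot be compared directly.

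**Figure D4:**
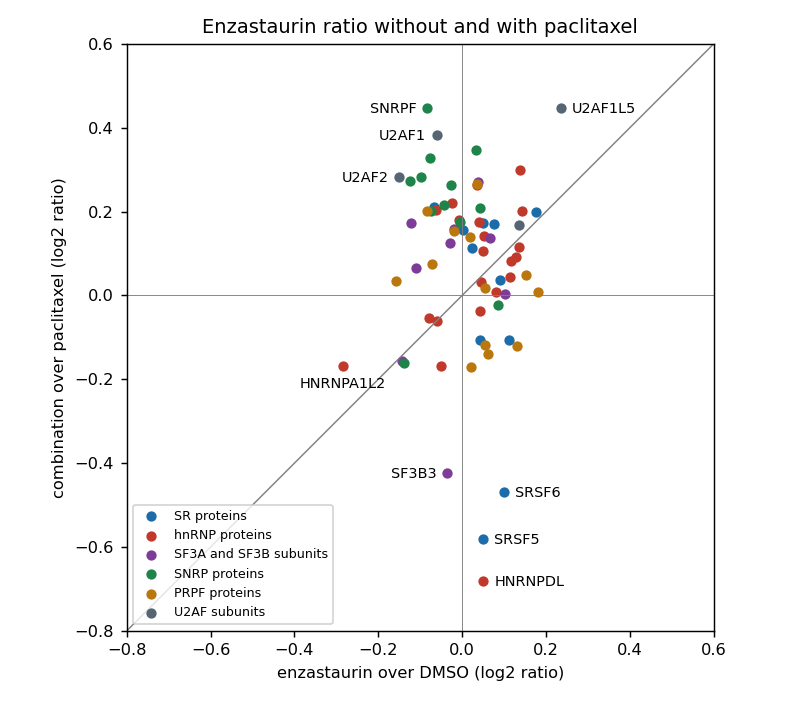
Enzastaurin ratio without and with paclitaxel. The horizontal axis is the log2 ratio of enzastaurin over DMSO, the vertical axis that of the combination over paclitaxel, each point is 1 measured member coloured by class, and the diagonal marks equal ratios. Points spread little sideways, from -0.29 to 0.24, and more upwards, from -0.68 to 0.45, with HNRNPDL, SRSF5, SRSF6 and SF3B3 at the bottom.

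The deposited values also hold a readout of transcript form. The quotient of a gene's expected count and its FPKM gives an effective length in bases, which changes where reads are assigned to longer or shorter transcripts of a gene; fragment length and the assignment itself enter it too. Over 69 members the median ratio of the longest to the shortest implied length among the 4 libraries was 1.02, against 1.04 over 9613 genes. A ratio of 1.1 or more was found for 7 members (10.1%) and 25.2% of genes, and 1.2 or more for 3 members (4.35%) and 9.20% of genes.

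The 3 members past 1.2 were SRSF8, with implied lengths of 2547, 2089, 2384 and 2568 bases, SNRPD1, with 2618, 2900, 3112 and 2544, and SNRPE, with 919.9, 837, 759 and 826. SRSF8 was shortest with enzastaurin, and with paclitaxel SNRPD1 was longest and SNRPE shortest. HNRNPH1 had 1749, 1686, 1712 and 1584 bases, shortest in the combination, which by construction puts its FPKM ratio above its count ratio. HNRNPDL kept its length, with 1496, 1513, 1498 and 1474 bases, and SF3B3 had 8205, 8529, 8120 and 8236. SRSF5 had 1260.4, 1311, 1276 and 1200.5 bases, and SRSF6 had 2642, 2838, 2585 and 2574. The lower counts of HNRNPDL and SF3B3 therefore came with changes in implied length of -1.44% and 0.37% over DMSO.

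**Figure D5:**
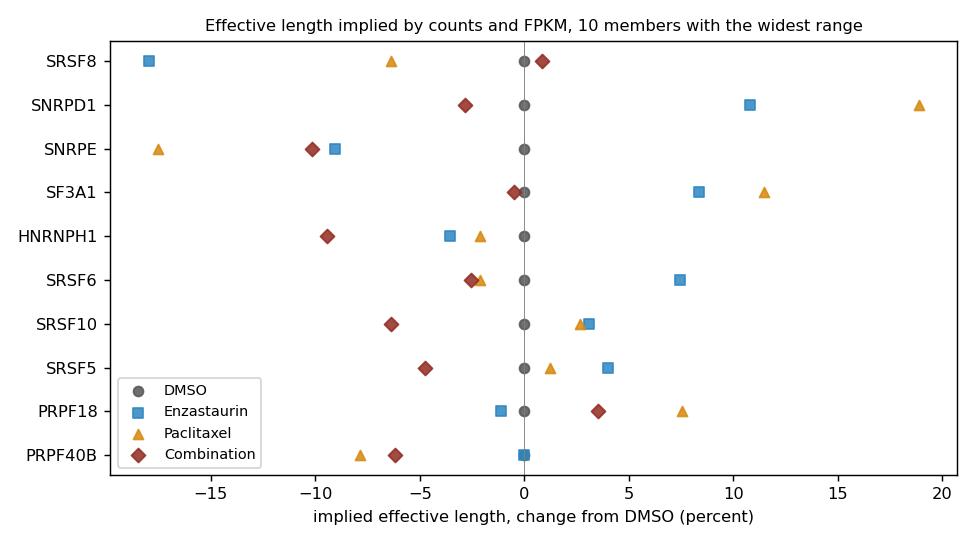
Implied effective length of the members with the widest range. The horizontal axis is the percent change from DMSO, each row is 1 gene and each marker 1 library. SRSF8, SNRPD1 and SNRPE spread most. The library furthest from DMSO is enzastaurin for SRSF8 and paclitaxel for SNRPD1 and SNRPE, which lie on opposite sides of DMSO.

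GENCODE 29 lists an NMD transcript for 39 of the 70 measured members (55.7%) and for 43.9% of measured genes. All 11 SR genes have one, as do 13 of 21 hnRNP genes, all 4 U2AF genes, 3 of 9 SF3A and SF3B subunits, 4 of 12 SNRP genes and 4 of 13 PRPF genes. The 4 lowest genes, HNRNPDL, SRSF5, SRSF6 and SF3B3, each have at least 1 such transcript, and their level was not measured apart. A transcript with a retained intron is listed for 44 members (62.9%) and 57.7% of measured genes.

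Other genes of the splicing pathway, taken from lists of spliceosome components and regulators, also differed little with single drugs, where none of them passed 1.5-fold. In the combination over paclitaxel, 0 of 22 other snRNP proteins, 0 of 12 minor spliceosome genes, 0 of 21 genes of the PRP19 complex and catalytic step and 0 of 26 SR-related genes passed it, against 13% of measured genes. Over DMSO 1 passed in each of the first 3 lists (SNU13 and SNRNP35 lower, CWC22 higher). That is 4.55%, 8.33% and 4.76% of the lists, against 16.7% of measured genes. Over enzastaurin 2 minor spliceosome genes were lower (16.7%) and CWC22 was higher (4.76% of its list), against 16.8% of measured genes. The list medians over paclitaxel were 0.11, 0.09, 0.25 and 0.08. SNU13, which binds U4 snRNA, was at -0.49 (-0.58 to -0.40), and CWC22, which loads the exon junction complex, at 0.43 (0.31 to 0.55). Of 17 snRNP assembly genes, 1 passed over paclitaxel, GEMIN4 at -0.68 (-0.83 to -0.54), and of 15 exon junction and NMD genes 1 passed, MAGOH at 0.65 (0.48 to 0.83). Over DMSO the snRNP assembly genes had 1 higher and 2 lower (17.6%). The exon junction and NMD genes had 2 higher (13.3%), where 16.7% of measured genes passed. Over enzastaurin the snRNP assembly genes had 1 higher and 3 lower (23.5%). The exon junction and NMD genes had 1 higher (6.67%), where 16.8% of measured genes passed.

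Genes past 2-fold in the combination were found among the kinases that phosphorylate SR proteins and the other splicing regulators. Of 8 SR kinases, 2 were higher and 2 lower at 1.5-fold over paclitaxel (50%, against 13% of measured genes), with a median of 0.13. Over DMSO 1 was higher and 2 lower (37.5%, against 16.7%), and over enzastaurin 2 were higher and 2 lower (50%, against 16.8%). Only over DMSO did SR kinases pass 2-fold, 1 higher and 1 lower, where 6.54% of measured genes did. CLK1 had 348, 433, 549 and 601 counts and was highest in the combination, at 1.11 (0.92 to 1.31) over DMSO and 0.59 (0.42 to 0.76) over paclitaxel. CLK2 had 736, 667, 719 and 287 counts and was lowest there, at -1.03 (-1.24 to -0.83) and -0.86 (-1.06 to -0.66). Of 29 measured regulators outside the families above, 4 were lower over paclitaxel and 0 higher, with a median of 0.00; that is 13.8% lower, near the 11.1% of measured genes. DDX17, an RNA helicase, had 7509, 7809, 7924 and 2485 counts, at -1.21 (-1.27 to -1.14) over paclitaxel. RBM5, a regulator of exon choice, had 2104, 2204, 2049 and 642 counts, at -1.21 (-1.34 to -1.08). CELF1 and RBFOX2 were at -0.92 (-1.02 to -0.82) and -0.69 (-0.76 to -0.62). DDX17 and RBM5 passed 2-fold in the combination over each of the other 3 libraries, which no SR, hnRNP, SF3, SNRP, PRPF or U2AF member did. Of the 29 regulators, 2, 2 and 3 were lower at 2-fold over DMSO, paclitaxel and enzastaurin. Of all measured genes, 5.53%, 4.17% and 5.43% were, so the list is not set apart by these few genes.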

How the data were processed

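Per the labels, total RNA was primed at random for cDNA and read on a NovaSeq6000. The authors deposited expected counts and FPKM values per gene, made with RSEM on hg38 per the submitters' processing notes, with versions, aligner and annotation not given in the sources used here. Expected counts were rounded to whole numbers (10.7% to 11.4% of values per library were not whole) and scaled by TMM factors of 1.000, 1.005, 1.006 and 0.988 (edgeR 4.0.16). CPM has exact 95% Poisson intervals and ratios have 95% Clopper-Pearson conditional intervals; without molecular identifiers, reads are not independent molecules, and intervals cover counting error only. Pooling of cultures in a library is likewise not stated. Scripts were tested on simulated data.

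The members and gene lists were chosen with earlier results of these data known. Named were, per class, members past 1.5-fold in any contrast, the highest and lowest in the combination over paclitaxel, the most abundant in DMSO, members that share reads, and in other lists those past 2-fold or the largest; others named were chosen after their values were seen. Positions, lengths and transcript kinds are from GENCODE 29 (76 of 76 members matched by Ensembl ID), promoters from RefSeq. The alternatives were library size alone, DESeq2 1.42.0 size factors, FPKM with pseudocounts of 1 and 0.1, thinned counts, other count minimums, sums with read-sharing genes, and removal of the length and GC trend.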

Additional observations from a re-analysis of the deposited data

Results flagged for a closer look

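The enzastaurin ratio lay on opposite sides of 0 without and with paclitaxel for 33 of the 70 measured members. Of these, 11 were negative and 22 positive with paclitaxel. The same count was not made over all genes, so 33 is not read as a trait of the members. With enzastaurin over DMSO, 47 of the 70 lay within 0.1 of 0. There the counting interval lay above 0 for 25 members and below 0 for 10, so many of these signs are uncertain. For 2 of the 33 the log2 difference between the ratios also reached 1.5-fold: -0.73 for HNRNPDL and -0.63 for SRSF5. In those 2, enzastaurin was at 0.05 over DMSO, and the combination was at -0.68 (HNRNPDL) and -0.58 (SRSF5) over paclitaxel. The interval of the first ratio of SRSF5 was -0.01 to 0.11 and includes 0. With 1 library in each group the difference between the 2 ratios was not tested.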

How the results depend on the processing

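No paired analysis was possible because there is a single library per group, and for the same reason no library could be left out. Of the counts of called members and the medians, 124 values under the alternatives stayed close to the reported ones and 7 moved. Close meant, for a count, equal or within 1.5-fold. For a median ratio it meant a shift below the typical half-width of a member's counting interval. Many of the 124 are counts of 0 that stayed 0, among them those at 1.5-fold for either drug alone, so the tally says little about the medians. The members' median for paclitaxel over DMSO turned from 0.01 to -0.0016 (34 above 0, 36 below) with the length and GC trend removed, and the PRPF median over paclitaxel to -0.01 (6 above 0, 7 below). In the combination over DMSO, 1 member, HNRNPDL, passed 1.5-fold with DESeq2 size factors, SF3B3 was lost with the trend removed, and on FPKM SRSF5 was lost and HNRNPH1 entered. Over paclitaxel 2 members, HNRNPDL and SRSF5, passed with library size alone, with thinned counts and with the length and GC trend removed. Over enzastaurin 1 member, HNRNPDL, passed on FPKM with either pseudocount. The median over DMSO was 0.075 with the length and GC trend removed. For single named members, 979 values stayed within the reported counting interval and 101 moved, 47 of them with that trend removed. HNRNPDL ranged from -0.71 to -0.66 over paclitaxel and SRSF5 from -0.61 to -0.51. Depth limits U2AF1L4, PRPF40B and HNRNPA1L2, whose intervals over paclitaxel include 0. The spread between cultures was not measured.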
